A study of Rattus norvegicus with 8 samples.

Results

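The calcium stores of the cell are filled, emptied and read by the products of the 9 genes followed here. These are Itpr1, Itpr2 and Itpr3 (the IP3 receptors), Atp2a2 and Atp2a3 (calcium pumps of the endoplasmic reticulum), Atp2b1 (a calcium pump of the plasma membrane), Stim1 and Orai1 (store-operated calcium entry) and Ppp3ca (a catalytic subunit of calcineurin). Their probes were taken by the gene name printed in the array files, with the suffix for predicted genes removed. That rule found 8 of the 9 genes among 35608 gene names. Orai1 has no probe under its present symbol, and its single probe, which the array names RGD1311873, was added through its RefSeq accession. Together the 9 genes have 20 of the 41012 probes. All 20 were well above background on all 8 arrays by the flag of the scanner software.

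The samples were primary thymocytes, the immature lymphocytes of the thymus, from adrenalectomized male Sprague-Dawley rats. Surgery removes the main source of the animals' own glucocorticoids, and Control and Dex cells both come from such rats. Thymi of 3 rats were pooled for a preparation and the cells were kept in culture for 6 hours, with no hormone added (Control, 4 arrays) or in 100 nM dexamethasone, a synthetic glucocorticoid (Dex, 4 arrays). The question was how the hormone changed the RNA of each gene. The methods name biological replicates, but fewer per group than the arrays deposited, and do not say which arrays those are, so all 8 were used. The labels do not tie an array to a preparation, and the p-values measure the spread between these samples, part of which may be technical.

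As background, IP3 is made at the plasma membrane by phospholipase C and opens IP3 receptors, which let calcium out of the endoplasmic reticulum. SERCA pumps, encoded by the Atp2a genes, move calcium back in. When the store runs down, STIM1 in its membrane opens the ORAI1 channel in the plasma membrane, and the calcium that enters activates calmodulin and calcineurin. In thymocytes this route follows stimulation of the antigen receptor, and calcium release has also been studied in the death that glucocorticoids cause in these cells.

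None of the 9 genes passed the test between Dex and Control. By limma's test with Benjamini-Hochberg adjustment over all probes, 0 of the 9 genes and 0 of their 20 probes were called at an adjusted p of 0.05, while 0.778% of all probes were called (319 of 41012, 231 higher and 88 lower in Dex). The adjusted p of the 20 probes ran from 0.166 to 0.969. At an unadjusted p under 0.05 there were 3 of 9 genes and 7 of 20 probes, beside 10.6% of all probes. With the replicate number as a block, which pairs Control 1 with Dex 1 and so on, 81 of all probes were called and again none of the 9 genes. The signal to noise statistic that the study's methods name, as repeated here, called 3 of the 9 genes, Atp2a2, Stim1 and Orai1. It used a nominal p in a single tail, where limma's p takes both, and called 6.79% of all probes (2784 of 41012). The paper reports far fewer genes with this statistic, so its calls were not reproduced here. Whether these 3 genes are among those it reports was not tested.

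Most of the genes had a lower mean in Dex. Taking the brightest probe for each gene, 7 were lower and 2 higher, and the median of their log2 fold changes was -0.28, against 0.0003 over all probes, of which 50% were lower. Atp2a2 and Stim1 were the 2 genes whose Control and Dex arrays did not overlap, both lower in Dex, beside 4.5% of all probes that were lower without overlap. The lowest and highest fold changes of the 9 genes were -0.50 for Atp2a2 and 0.50 for Orai1.

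**Figure D1:**
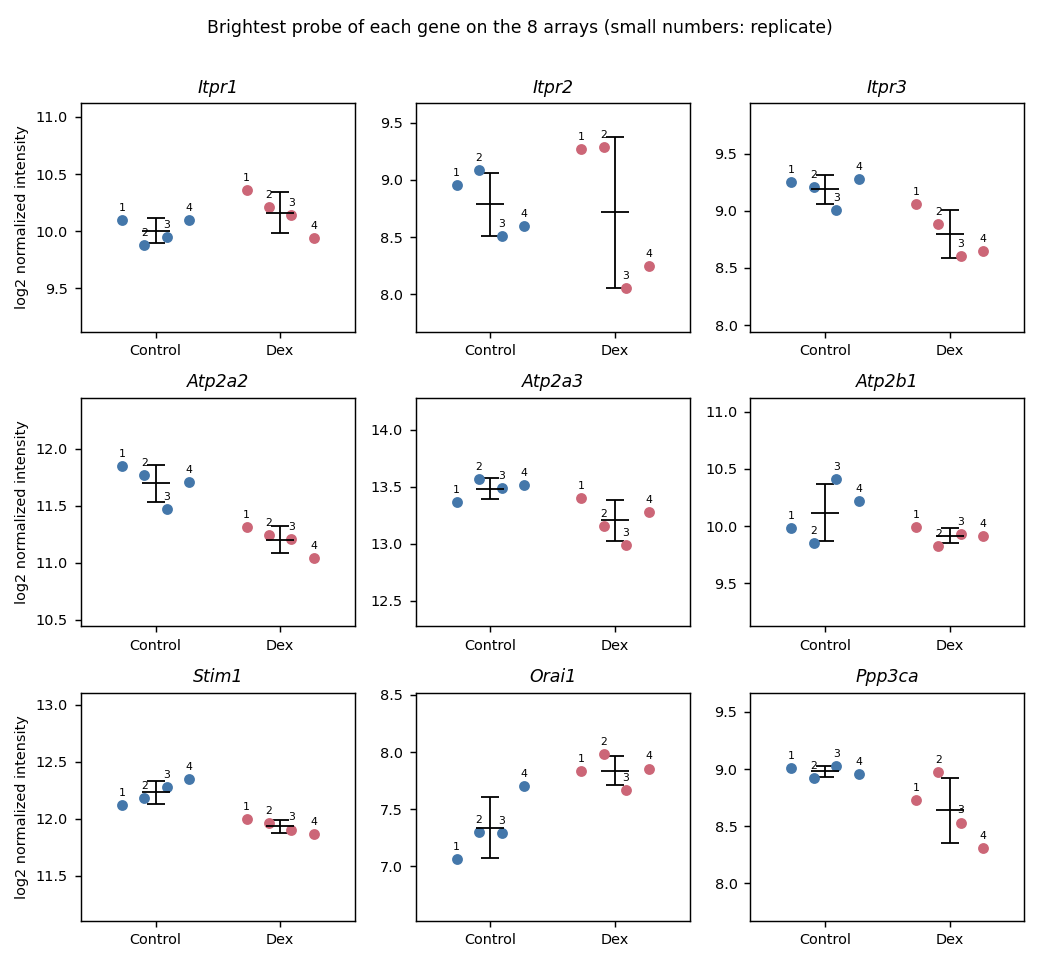
Log2 normalized intensity of the brightest probe of each of the 9 genes on the 4 Control and 4 Dex arrays, with replicate numbers beside the points and the mean and SD of each group in black; every panel spans the same number of log2 units. Control and Dex do not overlap for Atp2a2 and Stim1, and the Dex arrays of Itpr2 form a high pair (1 and 2) and a low pair (3 and 4).

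The arrays were not alike in quality. On Control 1, Dex 1 and Dex 2 between 24908 and 28665 probes were well above background, and on the other 5 arrays between 33148 and 34472. Spread between arrays was also larger in Dex, where 75.4% of all probes had the larger SD. With those 3 arrays left out, a choice made after the data were seen that leaves 3 Control and 2 Dex arrays, limma called 4671 probes, or 11.4% of them. None of the 9 genes was called by its brightest probe there either, but 4 of the 20 probes were, all lower in Dex: 2 of Atp2a2, 1 of Itpr2 and 1 of Itpr3. Over all probes 6.03% were called lower in that fit. Slide also goes with group for the most part, since Control 1 and Dex 3 share a slide, Control 2, 3 and 4 share another and Dex 1, 2 and 4 the last. The only difference within a slide is Dex 3 minus Control 1. It is therefore given as a value with no test beside the brightest probe of each of the 9 genes. It also stands beside other genes where it is far from the fold change. Control 1 is among the 3 arrays with fewer detected probes (28665), and Dex 3 is not (33284). This difference carries that contrast as well. With slide as a random block limma called 1838 of all probes, at a correlation within slides of -0.235. Where slide goes with group, a negative correlation makes the SE smaller, and calls of that fit carry this limit.

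Markers of double positive thymocytes, the main cell of the thymus, were present. Of 9 such genes 8 were found on the array and all 8 were well above background on every array. Intensities were summed over the 7 of them without a missing value. On the log2 scale the sum was 15.73 to 16.05 in Control and 15.66 to 15.73 in Dex. Such a sum weighs the brightest probe most, here Cd8a, with means of 15.29 in Control and 15.16 in Dex. Cd8b, left out of the sum because its value is missing on 1 Control array, had a fold change of 0.52 (adjusted p = 0.326). The median fold change over the 8 was -0.21. Cd4 and Cd3e had 0.14 and 0.16. The remaining genes had a lower mean in Dex: Cd8a -0.13, Rag2 -0.30, Dntt -0.44, Rag1 -0.59 and Ptcra -0.61. Ptcra, the pre-T cell receptor alpha gene, did not overlap between the groups (SE 0.15, adjusted p = 0.154). Markers of macrophages (9 of 10 on the array, all 9 well above background) summed to 12.17 to 12.61 in Control and 12.11 to 13.11 in Dex. Lyz2 was the brightest of them, with means of 11.92 in Control and 12.12 in Dex. The median fold change of the 9 was 0.21. Of the 9 genes 7 had a higher and 2 a lower mean, from -0.77 for Cd14 to 2.12 for Mrc1 (adjusted p = 0.087), and C1qc and Mrc1 were the 2 without overlap, beside 9.1% of all probes. Summed levels of stromal markers (8 of 9 on the array) were 9.85 to 10.40 and 9.44 to 10.86, those of B cell markers (4 of 6) 8.42 to 8.85 and 7.82 to 9.14, and those of erythroid markers (2 of 5) 7.95 to 10.33 and 7.94 to 11.16. Pdgfra, a stromal marker, was not well above background on any array. No marker gene of the 5 lists was called, and the part of these cells in the values below was not tested. In RNA from whole cultures, fewer cells of a type and less RNA per cell cannot be told apart.

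The 3 IP3 receptors are the channels through which the store empties. Itpr1, on its brightest probe (chromosome 4, 144274795 to 144274854 in build rn3, plus strand), read 10.10, 9.88, 9.95 and 10.09 on Control 1 to 4. On Dex 1 to 4 it read 10.36, 10.21, 10.14 and 9.94. The groups overlapped, since Dex 4 lay among the Control arrays, and the log2 fold change was 0.16 with an SE of 0.15 and a 95% interval of -0.20 to 0.51 (adjusted p = 0.783). Within the shared slide the difference was 0.04, without the 3 arrays of fewer detected probes the fold change was 0.06, and leaving out Dex 1 alone gave 0.09. A second Itpr1 probe, A_44_P176606, lies 77360 bases upstream and is printed 10 times on each array. It gave 5.67, 5.84, 5.27 and 5.93 in Control and 6.18, 6.41, 5.19 and 5.18 in Dex. Here Dex 1 and Dex 2 were above all Control arrays and Dex 3 and Dex 4 below them, so that the fold change of 0.06 (SE 0.33) averages opposite shifts, and it was -0.48 in the shared slide and -0.50 without the 3 arrays. Its 10 spots differed within an array by an SD of 0.10 to 0.17.

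Itpr2 showed the same split on its brightest probe, A_44_P264766. Control 1 to 4 read 8.95, 9.09, 8.51 and 8.60, and Dex 1 to 4 read 9.27, 9.29, 8.05 and 8.24. Dex 1 and Dex 2 were the highest of all 8 arrays and Dex 3 and Dex 4 the lowest. The log2 fold change of -0.07 had an interval of -0.83 to 0.69 (adjusted p = 0.963), and leaving out Dex 3 alone turned it to 0.15, Dex 4 alone to 0.09 and Control 2 alone to 0.03. It was -0.58 without Control 1, Dex 1 and Dex 2 (adjusted p = 0.147) and -0.90 within the shared slide. Its direction on this probe thus changed with the arrays used. Further downstream, the probe A_44_P439956 read 6.98, 7.06, 6.65 and 6.86 in Control against 6.90, 6.80, 5.91 and 5.95 in Dex, a fold change of -0.50 (SE 0.27, adjusted p = 0.597). Without Control 1, Dex 1 and Dex 2 its fold change was -0.92 and was called (adjusted p = 0.0405). The last probe, 235 bases beyond it, had a fold change of -0.22 (SE 0.15) with all arrays and of -0.20 without the 3 (adjusted p = 0.401).

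Itpr3, the receptor subtype whose gene was lower in Dex at an unadjusted p under 0.05, did so on both of its probes. Its brighter probe, A_44_P288185, read 9.26, 9.21, 9.01 and 9.28 on Control 1 to 4 and 9.06, 8.88, 8.60 and 8.65 on Dex 1 to 4. Dex 1 lay above Control 3, and otherwise every Dex array was below every Control array. The log2 fold change was -0.39 with an SE of 0.16 and an interval of -0.77 to -0.01, 0.76 times the Control level (unadjusted p = 0.0442, adjusted p = 0.452). It was -0.65 within the shared slide and -0.54 without the 3 arrays of fewer detected probes (adjusted p = 0.076). The other probe, A_44_P288187, gave -0.45 (SE 0.19, adjusted p = 0.444), and -0.68 without those arrays, where it was called (adjusted p = 0.0478).

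The probe sequences show how much these readings are independent. Both Itpr3 probes read 1 stretch of the RNA, since A_44_P288187 starts 20 bases upstream and the other 40 bases are shared, so they count as 1 measurement. The brightest Itpr2 probe covers the matching stretch of its own gene: laid beside A_44_P288185 it matches at 45 of 58 bases, or 77.6%, with no gap. Capitals mark the matching bases, and the sequences are those of the array's design.
Itpr2 A_44_P264766: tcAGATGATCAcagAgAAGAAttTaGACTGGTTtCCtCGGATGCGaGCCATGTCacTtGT
Itpr3 A_44_P288185: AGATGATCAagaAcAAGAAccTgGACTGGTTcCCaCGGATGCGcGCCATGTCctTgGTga
The upstream Itpr1 probe comes from another region of its gene and matches the Itpr2 probe at 25 of 60 bases (41.7%).
Itpr1 A_44_P176606: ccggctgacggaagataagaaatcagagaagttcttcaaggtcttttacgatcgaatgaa
In rn3 the Itpr2 probe spans positions 183925856 to 183958146 of chromosome 4 on the minus strand, and the Itpr3 probe 5355665 to 5356588 of chromosome 20 on the plus strand. A probe has 60 bases, so each spans a gap in the genome between its ends. How far RNA of one receptor binds the other's probe was not tested.

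The changes of the receptors were also set against each other, array by array. The log2 difference of Itpr1 over Itpr3 was 0.84, 0.66, 0.95 and 0.81 on Control 1 to 4 and 1.31, 1.33, 1.53 and 1.29 on Dex 1 to 4. All Dex values were above all Control values, and the mean shift was 0.55 (exact two-sided permutation test over 70 assignments of the arrays, p = 0.0286, the smallest that 4 against 4 arrays allow). Adjusted over the 5 pairs of genes compared, p was 0.0714, which does not pass 0.05. With the replicate numbers as pairs, the exact sign-flip test gave p = 0.125, the smallest that 4 pairs allow, and 0.312 adjusted. Shifts of Itpr1 over Itpr2 (0.23, exact permutation p = 0.486) and of Itpr2 over Itpr3 (0.32, exact permutation p = 0.286) did not pass the test. Leaving out 1 array gave 0.016 (Dex 3) to 0.40 (Dex 2) for the former and 0.16 (Dex 2) to 0.48 (Dex 3) for the latter. On the shared slide they were 0.94 and -0.25, so that Itpr2 over Itpr3 turned, and without the 3 arrays 0.64 and -0.04. The level of one probe is not comparable with that of another, and these shifts are changes only.

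The SERCA pumps refill the store. Atp2a2 encodes SERCA2, found in most cells, and its groups did not overlap on its brightest probe. Its brightest probe (chromosome 12, 35176476 to 35176535 in rn3, plus strand) is printed 10 times per array. It read 11.85, 11.77, 11.47 and 11.70 on Control 1 to 4 and 11.31, 11.25, 11.21 and 11.04 on Dex 1 to 4. Dex 1 was the closest to Control, below Control 3, and the SD between the spots of an array was 0.03 to 0.06. The log2 fold change was -0.50 with an SE of 0.15 and an interval of -0.85 to -0.14, which is 0.71 times the Control level (unadjusted p = 0.0115, adjusted p = 0.273). Over all alternatives it stayed negative, between -0.64 (within the shared slide) and -0.44, and its adjusted p stayed between 0.0537 and 0.821. The groups overlapped on the other probes of Atp2a2, 275 bases upstream and 2526 bases downstream. Their fold changes were -0.49 (SE 0.20) and -0.51 (SE 0.20). Without Control 1, Dex 1 and Dex 2 these became -0.75 (adjusted p = 0.0431) and -0.82 (adjusted p = 0.0417), while the brightest probe gave -0.52 (adjusted p = 0.0939).

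Atp2a3 encodes SERCA3, the pump typical of blood cells, and has 3 probes. The brightest (chromosome 10, 59897304 to 59897363, plus strand) read 13.36, 13.57, 13.49 and 13.52 in Control and 13.41, 13.16, 12.99 and 13.28 in Dex. Dex 1 lay within the Control range and the other 3 below it, with a fold change of -0.28 (SE 0.15, adjusted p = 0.597) and -0.38 in the shared slide. The middle probe, A_44_P548079, lies 3029 bases upstream of it. It read 7.43, 7.62, 7.48 and 7.45 in Control and 6.94, 6.24, 7.02 and 6.47 in Dex. Its groups did not overlap and its fold change of -0.83 (SE 0.21, interval -1.31 to -0.35) was 0.56 times the Control level and the largest in size among the 20 probes. The unadjusted p was 0.00399 and the adjusted p 0.166. It was called with background correction by normexp (-0.47, adjusted p = 0.0433) and with slide as a random block (-0.90, adjusted p = 0.0201). Those fits called 915 and 1838 of all 41012 probes. In the shared slide the difference was -0.40. The most upstream probe, A_44_P151734, had a fold change of -0.04 (SE 0.23), with -0.57 in the shared slide and -0.36 without the 3 arrays (adjusted p = 0.319). Leaving out 1 array gave -0.15 (Dex 1) to 0.15 (Dex 3).
The shift of the middle probe against the brightest was -0.55 (exact two-sided permutation test, p = 0.0857, and 0.40 adjusted over the 14 pairs of probes of 1 gene, which were chosen after the values were seen). Between the brightest probes of Atp2a2 and Atp2a3 the shift was -0.22 (exact permutation p = 0.20, adjusted over the 5 pairs p = 0.333). It was -0.13 without Control 1, -0.14 without Dex 4 and -0.13 without the 3 arrays of fewer detected probes.

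Atp2b1 encodes PMCA1, which pumps calcium out of the cell. Its brighter probe (chromosome 7, 36620113 to 36620172, plus strand) read 9.98, 9.85, 10.42 and 10.22 in Control and 9.99, 9.83, 9.93 and 9.91 in Dex. The Dex arrays lay close together, inside or just below the Control range, and the fold change was -0.20 (SE 0.17, adjusted p = 0.739), with -0.05 in the shared slide. Leaving out Control 3 gave -0.10 and leaving out Control 2 gave -0.29. Its other probe, 41513 bases upstream, gave -0.28 (SE 0.16, adjusted p = 0.619).

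Stim1, the calcium sensor of the store, was lower in Dex on its brightest probe without overlap. The probe (chromosome 1, 160004787 to 160004846, plus strand) read 12.12, 12.18, 12.28 and 12.35 on Control 1 to 4 and 11.99, 11.96, 11.91 and 11.86 on Dex 1 to 4. The groups came closest at Dex 1 and Control 1. The log2 fold change was -0.30 with an SE of 0.14 and an interval of -0.61 to 0.01, 0.81 times the Control level (unadjusted p = 0.0573, adjusted p = 0.495). In the shared slide it was -0.22. Its upstream probe, A_43_P18329, 13757 bases away, read 8.42, 8.43, 8.09 and 8.45 in Control and 8.71, 8.76, 7.70 and 7.87 in Dex. As for Itpr1 and Itpr2, Dex 1 and Dex 2 were the highest and Dex 3 and Dex 4 the lowest of the 8 arrays, and the fold change was -0.09 (SE 0.28). It was -0.72 in the shared slide and -0.54 without the 3 arrays (adjusted p = 0.106), where the brightest probe gave -0.38, and leaving out 1 array gave -0.25 (Dex 2) to 0.10 (Dex 3).
Stim1 A_43_P18329: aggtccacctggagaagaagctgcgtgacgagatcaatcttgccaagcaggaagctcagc
This sequence is shown because it is 1 of the probes on which the Dex arrays split.

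Orai1, the pore of store-operated entry, had the highest fold change of the 9 genes. It read 7.06, 7.30, 7.29 and 7.70 on Control 1 to 4 and 7.83, 7.98, 7.67 and 7.86 on Dex 1 to 4. Dex 3 was just below Control 4, and otherwise all Dex arrays were above all Control arrays. The log2 fold change was 0.50 with an SE of 0.18 and an interval of 0.09 to 0.91, or 1.41 times the Control level (unadjusted p = 0.0231, adjusted p = 0.36). It was 0.61 within the shared slide and 0.33 without the 3 arrays of fewer detected probes (adjusted p = 0.288). Since the array does not name this probe Orai1, its sequence is given, from chromosome 12, 34495340 to 34495399 in rn3, minus strand.
Orai1 A_42_P673973: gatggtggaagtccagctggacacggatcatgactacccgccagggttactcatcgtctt
Stim1 and Orai1 act as a pair, and the change of Stim1 over Orai1 was -0.80. The difference was 5.06, 4.88, 4.99 and 4.65 on Control 1 to 4 and 4.16, 3.98, 4.24 and 4.01 on Dex 1 to 4, with no overlap (exact two-sided permutation test, p = 0.0286, the smallest possible, and 0.0714 adjusted over the 5 pairs). With the replicate numbers as pairs the exact sign-flip p was 0.125, and 0.312 adjusted. Leaving out any 1 array kept it between -0.88 and -0.74.
Usf2, Ublcp1, Rnf126, Ptpn1 and Grn had the profiles most like that of Orai1 among 8766 gene symbols, with root mean square differences of 0.10 to 0.12 over the 8 arrays after centering each probe on its mean. Usf2, a transcription factor gene, was closest (0.10) with a fold change of 0.43, and Grn, the progranulin gene, had one of 0.68 (SE 0.15, adjusted p = 0.125).

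Ppp3ca encodes a catalytic subunit of calcineurin, the phosphatase that acts on NFAT. Its brighter probe (chromosome 2, 234395772 to 234395831, plus strand) read 9.01, 8.92, 9.03 and 8.96 in Control and 8.73, 8.98, 8.53 and 8.31 in Dex. Control was tight, with an SD of 0.05 against 0.28 in Dex, and Dex 2 lay within it. The fold change was -0.34 (SE 0.18, adjusted p = 0.566), with -0.48 in the shared slide and -0.55 without the 3 arrays (adjusted p = 0.0681). A probe 278959 bases upstream carries the same gene name, and the array file describes it as a clone of unknown mRNA. It ranged from 4.62 to 6.85 in Control and from 4.87 to 6.92 in Dex, with a fold change of 0.46 (SE 0.59). Leaving out 1 array gave 0.14 (Dex 2) to 0.91 (Control 1), it was 0.14 without the 3 arrays, and on the shared slide it turned to -1.99. The mean of both probes had a fold change of 0.06, so the direction for Ppp3ca rests on leaving this second probe out.

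**Figure D2:**
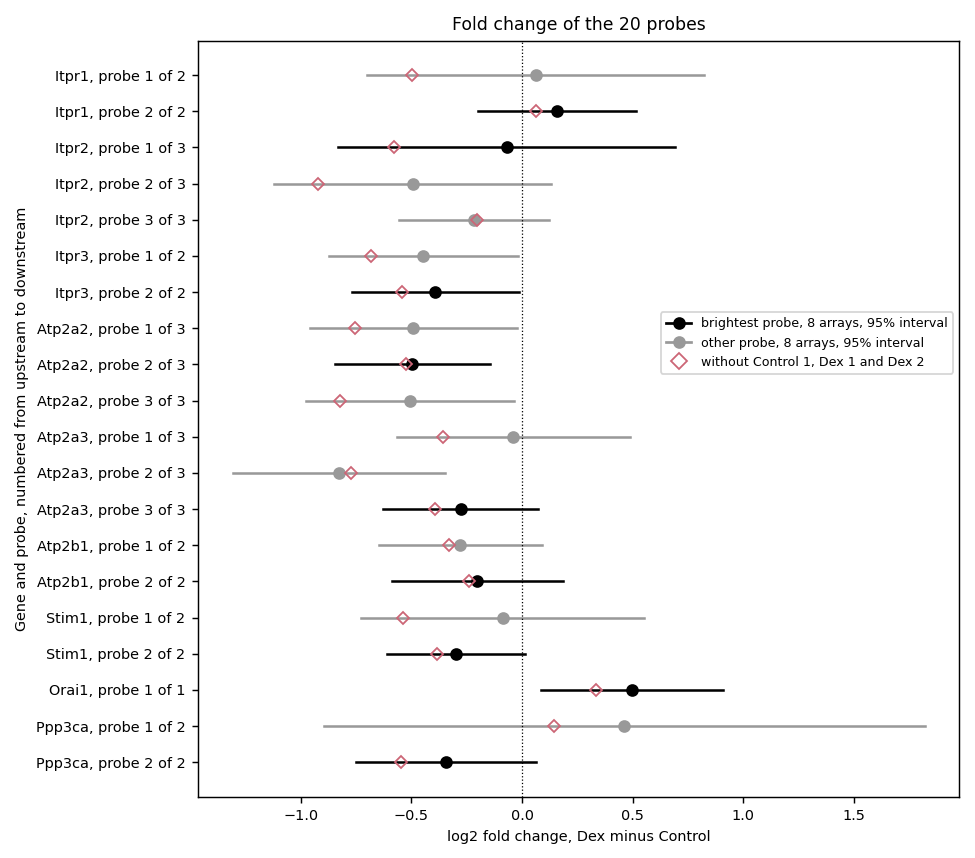
Log2 fold change of Dex over Control for the 20 probes, ordered by gene and from upstream to downstream; circles and lines are limma's estimates and 95% intervals over all 8 arrays (black for the brightest probe of a gene, gray for others), and open diamonds are the estimates without Control 1, Dex 1 and Dex 2. Of the 20 circles 16 lie below 0, and the diamonds of 17 do.

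Upstream and downstream probes of a gene differed between the Dex arrays. Of the 8 genes with several probes, 7 have their outermost probes over 1000 bases apart. For all 7, the log2 difference of the most upstream over the most downstream probe was higher on Dex 1 and Dex 2 than on Dex 3 and Dex 4. In Stim1, for example, it was -3.29 and -3.20 on Dex 1 and 2 against -4.21 and -3.99 on Dex 3 and 4, with Control from -4.18 to -3.70. In Itpr2 it was 0.76 and 1.12 against -0.27 and -0.14, with Control from 0.04 to 0.39. Among 2099 other genes with such probes, this order held for 46.3% and the opposite order for 30.1%. The upstream probe had the larger SD in Dex for all 7 genes, and for 63.7% of the 2099. In Control it had the larger SD for 5 of the 7. Between Dex and Control the shift of the upstream over the downstream probe passed in none of the 14 pairs of probes (exact permutation tests, smallest adjusted p = 0.40). The upstream probes of Itpr1, Itpr2 and Stim1 thus split the Dex arrays in the way the numbers of detected probes do. What causes the split was not tested.

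**Figure D3:**
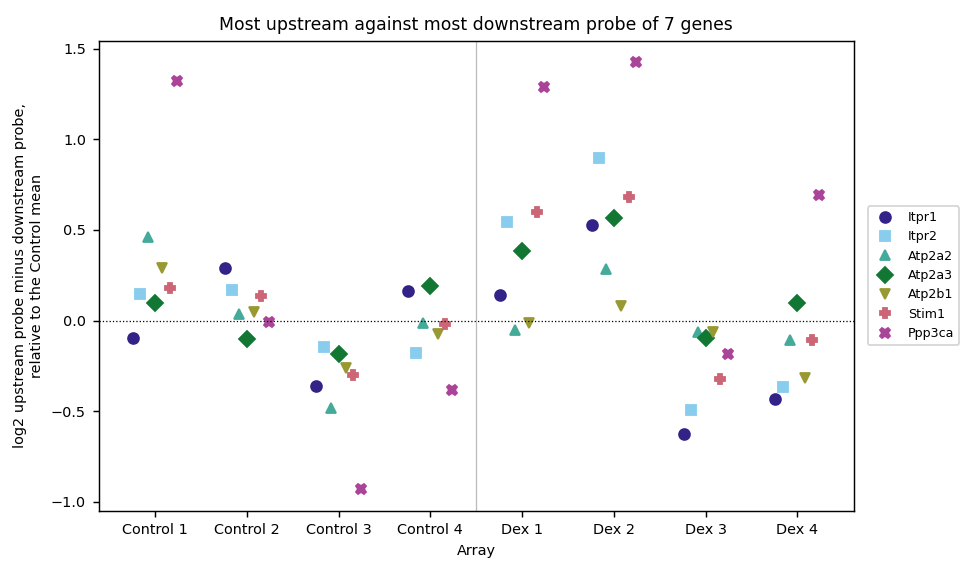
Log2 level of the most upstream probe minus that of the most downstream probe on each array, relative to the Control mean of the same gene, for the 7 genes whose outermost probes lie over 1000 bases apart. For each gene the points of Dex 1 and Dex 2 lie above those of Dex 3 and Dex 4.

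Around these 9 genes stand others of the calcium route, and 2 of them rose. A list of 95 genes in 10 roles was read in the same fit, of which 85 were matched to a probe. Itpka and Camkk1 rose and none fell, so that 2.35% of the 85 were called, beside 0.75% of all gene names by their brightest probe. With dim probes left out, 2 of 73 genes of the list and 562 of 28476 probes were called, and these shares lay closer together. Of the 85, 40 were higher and 45 lower in Dex, and the median of their log2 fold changes was -0.04. Control and Dex did not overlap for 15 of them (17.6%), 6 higher and 9 lower, beside 9.1% of all probes (4.6% higher and 4.5% lower).

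Itpka encodes a kinase that phosphorylates IP3 and so removes the ligand of the IP3 receptors. It read 11.31, 11.51, 11.20 and 11.62 on Control 1 to 4 and 13.34, 13.34, 13.41 and 13.25 on Dex 1 to 4. The Dex arrays lay close together and all far above the highest Control array. The log2 fold change was 1.93 with an SE of 0.15, which is 3.80 times the Control level (adjusted p = 0.0016), and Dex 3 minus Control 1 on the shared slide gave 2.10. Other genes of IP3 removal were not called. Itpkc, another IP3 kinase, had 0.29 (SE 0.15, adjusted p = 0.546) and Inpp5a, an IP3 phosphatase, 0.31 (SE 0.15, adjusted p = 0.54), both without overlap. In the shared slide Inpp5a had 0.11, and without the 3 arrays 0.17 (adjusted p = 0.417). Of the 5 genes in this role 4 had a higher mean in Dex. Of the 7 phospholipase C genes, which make IP3, 5 had a higher mean and none was called.

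Camkk1 encodes a kinase that is activated by calcium and calmodulin and in turn activates other kinases of that family. Control 1 to 4 read 9.69, 10.12, 10.20 and 10.01 and Dex 1 to 4 read 11.95, 11.94, 12.02 and 11.84. The groups were far apart, with a fold change of 1.93 (SE 0.16, 3.82 times the Control level, adjusted p = 0.00203) and 2.33 on the shared slide. Itpka and Camkk1 passed in 15 of the 16 alternatives that gave an adjusted p, and in the fit with slide as a fixed block, which rests on 1 array per group, neither did (adjusted p = 0.311 and 0.159). Camk2d, another kinase of the role, had 0.84 (SE 0.30, adjusted p = 0.363) without overlap. It read 6.30 and 6.75 on Dex 1 and 2 but 5.60 and 5.49 on Dex 3 and 4, and its fold change was 0.33 without the 3 arrays (adjusted p = 0.332), 0.35 with normexp and 0.47 in the shared slide.

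**Figure D4:**
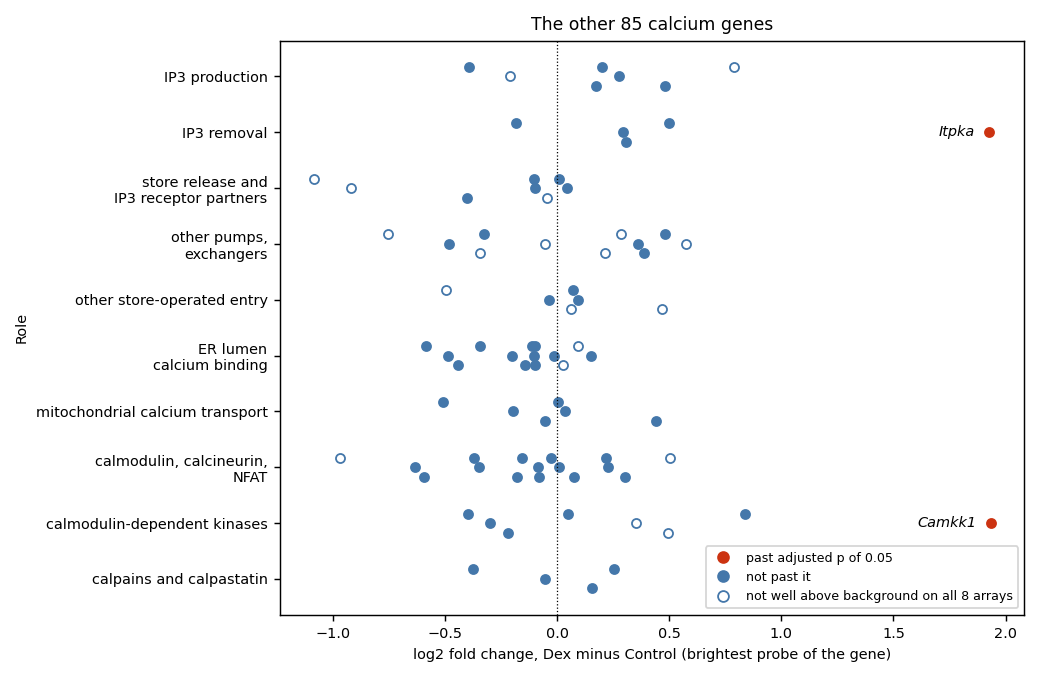
Log2 fold change of Dex over Control for the 85 other calcium genes by role, each point the brightest probe of a gene; red points passed an adjusted p of 0.05 and open points were not well above background on all 8 arrays. Itpka and Camkk1 stand near 1.93, and all other genes lie between -1.08 and 0.84.

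Calm3, a calmodulin gene, had a lower mean in Dex and did not pass the test. It read 13.96, 13.80, 13.68 and 13.81 in Control and 13.37, 13.45, 13.03 and 13.02 in Dex, with no overlap and a fold change of -0.59 (SE 0.17, adjusted p = 0.218), and -0.92 in the shared slide. It was called with normexp (-0.59, adjusted p = 0.042) and without the 3 arrays of fewer detected probes (-0.74, adjusted p = 0.0396). The latter fit called 11.4% of all probes and 8 of the 85 calcium genes. Calm2 had -0.08 (SE 0.14). Of the 16 genes of calmodulin, calcineurin and NFAT, 10 had a lower mean and none was called.

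Of 14 genes for calcium binding proteins of the endoplasmic reticulum 11 had a lower mean in Dex. None was called. Hsp90b1, a chaperone of the store, had -0.34 (SE 0.15, adjusted p = 0.475) and Rcn2, reticulocalbin 2, -0.49 (SE 0.18, adjusted p = 0.374), both without overlap. Hsp90b1 also has an upstream probe that went the other way, at 0.25 (SE 0.15). Rcn2 was called without the 3 arrays (-0.73, adjusted p = 0.0409) and had -0.70 in the shared slide.

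The other pumps and exchangers held 6 genes with a higher and 5 with a lower mean, and none was called. Atp2c1, the calcium pump of the Golgi, had -0.48 (SE 0.14, adjusted p = 0.226), 0.72 times the Control level, and Atp2a1, SERCA1, 0.48 (SE 0.15, adjusted p = 0.284), both without overlap. With normexp Atp2a1 had 0.22. Atp2c1 was called with normexp (-0.41, adjusted p = 0.0194) and with slide as a random block (-0.47, adjusted p = 0.043). Among partners of the release channels, Homer1, a scaffold that binds IP3 receptors, had -0.92 (SE 0.25, adjusted p = 0.21). It read 5.52, 6.08, 5.57 and 5.57 in Control and 4.51, 4.29, 5.19 and 5.07 in Dex, where 3 of 4 arrays were well above background. Its fold change was -0.29 with normexp, -0.33 in the shared slide and -0.61 without the 3 arrays (adjusted p = 0.12), and it was called with slide as a random block (-1.02, adjusted p = 0.0244). Its second probe, well above background on 1 Control and 1 Dex array, had 1.47 (SE 0.77).

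Of the 6 genes of mitochondrial calcium transport Slc8b1, the sodium and calcium exchanger that takes calcium out of mitochondria, had -0.51 (SE 0.17, adjusted p = 0.313) and Micu2, a regulator of the uniporter, -0.20 (SE 0.14, adjusted p = 0.699). Neither overlapped between the groups. In the shared slide they had -0.16 and -0.06, and Slc8b1 was called with slide as a random block (-0.57, adjusted p = 0.0463). None of the 6 other genes of store-operated entry and none of the 4 calpain and calpastatin genes was called or free of overlap.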

How the data were processed

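RNA labeled with Cy3 was read on Agilent Whole Rat Genome arrays of 1 color. The deposited intensity of each spot was extracted by the authors with Feature Extraction 9.5.3.1, which subtracts background, and is not yet scaled across arrays. The authors further deposited log2 values after quantile normalization and a median polish of each probe. Both steps were repeated here on the intensities of 43379 non-control spots, which left 16 missing values among 41012 probes (40749 printed once, 263 printed 10 times) and no saturated probe. Probe positions are those of build rn3 in the file headers. Gene names come from the array, and from the RefSeq table (assembly GRCr8) for 10735 probes matched by accession.

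limma 3.58.1 in R 4.3.3 (lmFit, eBayes, two-sided, no block, Benjamini-Hochberg over all probes at 0.05) was the test, after tests on simulated data. The brightest probe stands for a gene. Named were the 9 genes with every probe, each called gene of the calcium list, and per role up to 2 further genes with the largest fold change without overlap and well above background in the brighter group, of which 1 is not reported here. Likeness was computed for the gene with the largest fold change. Members, lists and tests were chosen with earlier results of these data known. Alternatives were 75th percentile scaling, normexp (offset 50), the deposited values, leaving out dim probes, replicate or slide as a block, the signal to noise statistic (nominal p 0.01, fold 1.2), each array left out, and the mean of a gene's probes.

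Deviations from the group means of arrays with the same number correlated at 0.397, 0.129, 0.55 and 0.184 for replicates 1 to 4. As each is over 0.1, fits and tests with the replicate numbers as pairs are given beside the unpaired ones where they change a count or a call, although Control 1 correlated as well with Dex 2 (0.401). Depth on arrays is limited by their number, and by signal over background.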

Additional observations from a re-analysis of the deposited data

Results flagged for a closer look

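In 78 groups of 4 arrays examined, 3 held an array that stood apart from the other 3 by Dixon's criterion, which compares the gap to the nearest array with the range, and chance gives about 1 in 20. On the upstream Stim1 probe A_43_P18329, Control 3 lay at 8.09 with the nearest array at 8.42, a gap of 0.92 of the range. For Homer1, Control 2 lay at 6.08 with the nearest at 5.57 (0.913). The log2 difference of Itpr1 over Itpr3 was 1.53 on Dex 3 and at most 1.33 on the other Dex arrays (0.838).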

How the results depend on the processing

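The count of probes called over all 41012 depended on the setting. It was 166 with scaling to the 75th percentile, 915 with normexp background correction, 562 with dim probes left out, 1 with slide as a fixed block, 1838 with slide as a random block (consensus correlation -0.235), 2784 by the signal to noise statistic, and 4671 without Control 1, Dex 1 and Dex 2, an alternative added after the data were seen. Leaving out 1 array gave 96 (Control 4) to 249 (Dex 3), and every array left out but Dex 3 lowered the count by over 1.5 times. With the replicate block it was 81, none of the 9 genes was called and both Itpka and Camkk1 were, and the block changed no other call among the genes named. The 9 genes had 0 calls in every setting but the signal to noise statistic, which called 3 at its nominal p (Atp2a2 -0.50, Stim1 -0.30, Orai1 0.50, the same values as in the report). Calls among the 85 calcium genes were 4 with normexp, 0 with slide as a fixed block, 5 with slide as a random block, 13 by the signal to noise statistic and 8 without the 3 arrays.

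Itpr2 changed sign with 75th percentile scaling (0.012) and slide as a random block (0.068), and ran from -0.26 to 0.15 when 1 array was left out. It was -0.90 with slide as a fixed block and -0.58 without the 3 arrays. Ppp3ca changed sign as the mean of its probes (0.059). Upstream probes changed sign too. Atp2a3 A_44_P151734 was at 0.0052 with 75th percentile scaling, at 0.049 with slide as a random block and at -0.15 to 0.15 with 1 array left out. Itpr1 A_44_P176606 was at -0.48 with slide as a fixed block, at -0.50 without the 3 arrays and at -0.16 to 0.25 with 1 left out. Stim1 A_43_P18329 was at 0.017 with slide as a random block and at -0.25 to 0.10 with 1 left out, and Ppp3ca A_44_P221588 at -1.99 with slide as a fixed block. On the shared slide the shift was 0.94 for Itpr1 over Itpr2, 0.69 for Itpr1 over Itpr3 and -0.25 for Itpr2 over Itpr3, which was -0.040 without the 3 arrays. The other 7 of the 9 genes kept their direction in all alternatives run. The cause of these changes was not tested. Signal over background limits the dimmer probes, and 2 to 4 arrays a group limit the rest.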
